A study of Homo sapiens with 8 samples.

Results

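MIR328, MIR345, MIR450A1 and MIR449A are microRNA genes whose array features still gave clear signal in K562 cells on day 22 of erythroid induction. These 4 members, of 207 features in all, were picked by their brightness on the day 22 array, where each was among the 10 brightest features. On day 22 MIR345 held place 4, MIR450A1 place 7, MIR449A place 8 and MIR328 place 9. At the border of the choice, MIR26B in place 10 stood 209 units above the dimmest spot and MIRLET7G in place 11 stood 207. The day 22 values are therefore a description here, and the main tests use days 0 to 10 only. Fits with day 22 among the alternatives carry no test of the members.

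K562 is an established human line from chronic myelogenous leukaemia with some capacity to mature towards red cells. Day 0 cells were not stimulated, and cells of days 2, 4, 6, 8, 10 and 22 had been kept in serum-free StemLineII medium with IL3 (50 ng/ml) plus EPO (7.5 U/ml). Each time point had 1 Cy3 array, so there was no replicate, and whether cultures were separate is not stated. The extraction protocol speaks of CD34 cells while all other labels speak of K562.

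MicroRNAs are cut from hairpin precursors into short single strands that guide Argonaute proteins to messenger RNAs. The seed, bases 2 to 8 from the 5′ end, sets most of the pairing with the target, so microRNAs with 1 seed share many targets. A gene symbol names the hairpin and not which of its strands, or arms, the array measured. RefSeq (GRCh38.p14) holds 7 mature strands for the 4 members. They are printed first because the members were grouped by signal, and the strands show how far they are related, with the seed in capitals.

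miR-328-3p: cUGGCCCUcucugcccuuccgu
miR-328-5p: gGGGGGGCaggaggggcucaggg
miR-345-5p: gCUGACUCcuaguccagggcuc
miR-345-3p: gCCCUGAAcgaggggucuggag
miR-450a-5p: uUUUGCGAuguguuccuaauau
miR-450a-1-3p: aUUGGGAAcauuuugcauguau
miR-449a: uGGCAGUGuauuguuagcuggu

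The strands of different members had no seed in common. Over the 18 pairs of strands from different members, the longest shared run of bases was 2 to 6, and the best ungapped alignment matched 7 to 11 bases. Base composition did not unite them either. The GC content was 68.2% in miR-328-3p, 82.6% in miR-328-5p, 63.6% in miR-345-5p and 68.2% in miR-345-3p, but 31.8% in both miR-450a strands and 45.5% in miR-449a. The median over the 117 mature strands of the named features was 45.5%.

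The members also lie on different chromosomes. The miR-328-3p strand lies at chr16:67202327-67202348 on the minus strand, within the bounds of ELMO3, a gene for an adaptor in cell engulfment. MiR-328 is known for binding the RNA-binding protein hnRNP E2 as a decoy in chronic myelogenous leukaemia. The miR-345-5p strand lies at chr14:100307876-100307897 on the plus strand, with 0 other microRNA genes within 10 kb in RefSeq. The miR-450a-5p strand of MIR450A1 lies at chrX:134540393-134540414 on the minus strand, with MIR450A2, MIR450B, MIR542, MIR503 and MIR424 within 10 kb. The miR-449a strand lies at chr5:55170586-55170607 on the minus strand, within the bounds of CDC20B, near MIR449B and MIR449C. MiR-449a is known from multiciliated epithelium and as a brake on the cell cycle that E2F1 induces.

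For MIR449A and MIR450A1 close relatives exist, which a short probe may not tell apart. The relatives are shown because they bear on what a signal of these features can contain. MiR-34a, the p53-induced member of the MIR34 family, has the seed of miR-449a.

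miR-449a: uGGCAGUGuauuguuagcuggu
miR-449b-5p: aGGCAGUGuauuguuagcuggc
miR-34a-5p: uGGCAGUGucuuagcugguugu
miR-450a-1-3p: aUUGGGAAcauuuugcauguau
miR-450a-2-3p: aUUGGGGAcauuuugcauucau

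MIR450A1 and MIR450A2 give the same miR-450a-5p strand. Their 3p strands differ by A7G, G19U and U20C, counted from the 5′ end with the MIR450A1 base first. How far relatives contributed to the signals was not tested.

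Intensities are given as Cy3 units above the dimmest spot of the same array, since the deposited values are centred on the array mean and the true zero is unknown. Errors are the SD of the 3 spots of a feature, which cover spotting and reading and not cultures or arrays. No scaling between arrays was visible in the deposited values. The median feature stood between 46.3 units (day 8) and 326 units (day 4) above the dimmest spot, and the brightest spot between 554 units (day 22) and 15443 (day 0). A day-to-day difference in units thus includes the brightness of the whole array.

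MIR328 was the dimmest of the 4 up to day 6. In the order of days 0, 2, 4, 6, 8, 10 and 22, it measured 183 ± 15.3, 377 ± 59.9, 329 ± 51.4, 158 ± 13, 106 ± 10.1, 153 ± 12.1 and 232 ± 6.08 units (SD over 3 spots). Counted from the dimmest spot, the signal was highest on days 2 and 4, whose spots overlapped, and lowest on day 8. The spots of days 0 and 6 overlapped too, as did those of days 6 and 10. The day 22 spots lay above those of day 0 and below those of day 4. Counted from the median spot the mean was lowest on day 4 and highest on day 22. On that scale the spots of day 4 overlapped those of days 6 and 8, and the spots of day 22 overlapped those of day 2.

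MIR345 was the brightest of the 4 on all 7 arrays. Its values over the same days were 349 ± 22.7, 750 ± 99.1, 576 ± 24.5, 254 ± 15.3, 141 ± 3.61, 213 ± 10.7 and 301 ± 19.6 units (SD over 3 spots). From high to low the order was days 2, 4, 0, 22, 6, 10 and 8, and no neighbours in that order had overlapping spots.

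MIR450A1 gave 279 ± 11.5, 623 ± 49.9, 549 ± 64.2, 198 ± 10.6, 127 ± 7.55, 173 ± 10.8 and 273 ± 5.0 units over these 7 arrays (SD over 3 spots). The order of days was that of MIR345. Here the spots of days 2 and 4 overlapped, and so did those of days 0 and 22.

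MIR449A gave 213 ± 26.4, 707 ± 62.0, 557 ± 45.0, 220 ± 5.51, 97.7 ± 6.66, 129 ± 7.94 and 235 ± 17.7 units (SD over 3 spots), again in sampling order. Days 22, 6 and 0 formed a middle level, with overlapping spots between days 22 and 6 and between days 6 and 0. Day 2 lay at 331% of day 0, the widest early difference among the 4 members.

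**Figure D1:**
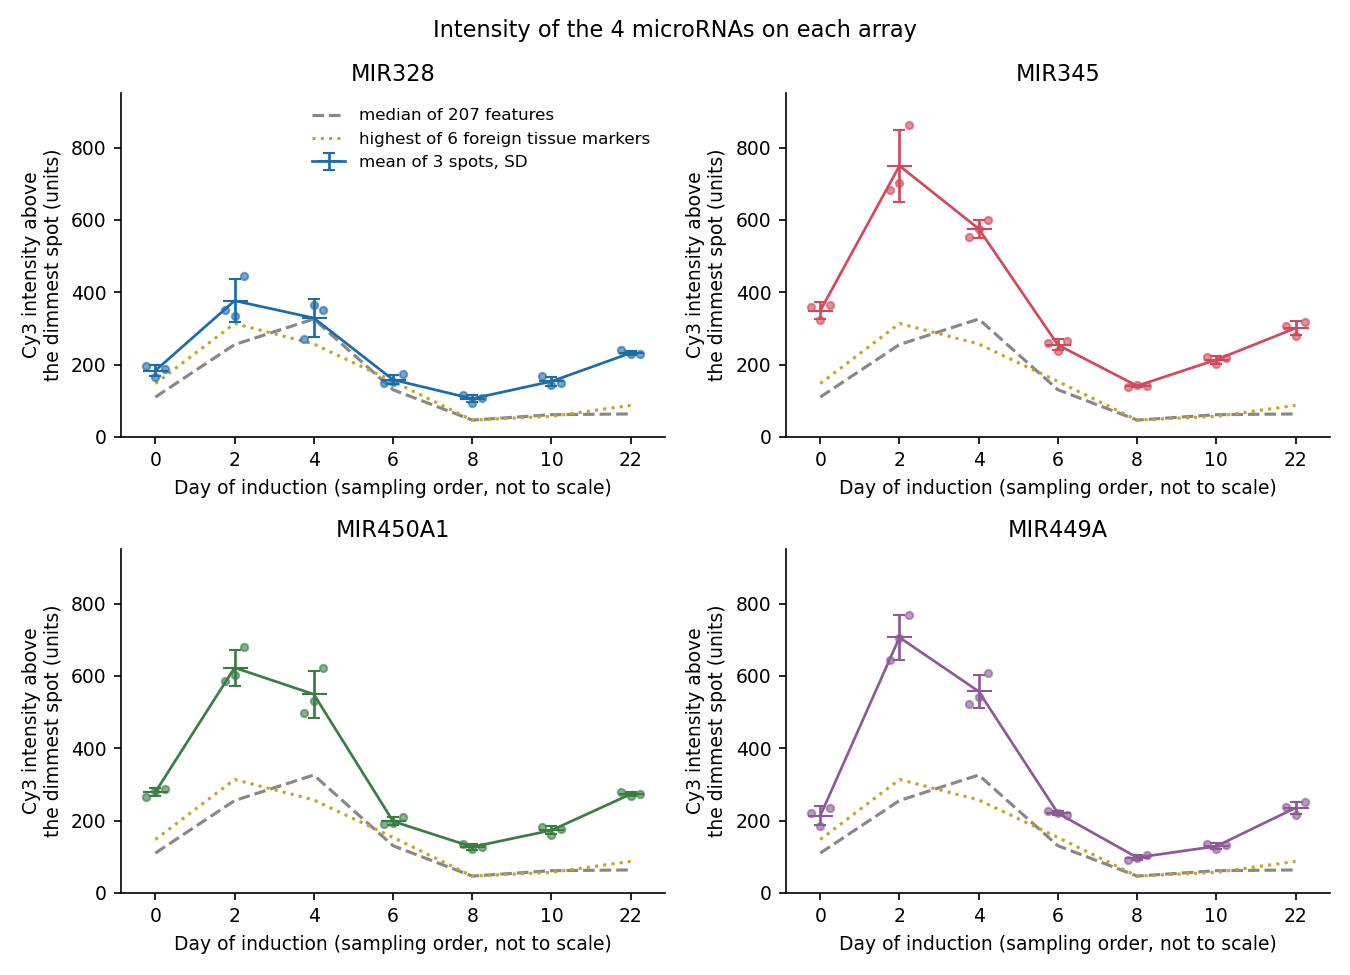
Cy3 intensity above the dimmest spot (y axis, units) on the 7 arrays in sampling order (x axis, day of induction, equal steps) for each of the 4 microRNAs; points are the 3 spots, bars their SD, the dashed line is the median of 207 features and the dotted line the highest of 6 foreign tissue markers. With the dimmest spot as zero, each microRNA is highest on day 2 and lowest on day 8, and its day 22 mean lies between 232 and 301 units. With the median spot as zero, the mean of MIR328 is lowest on day 4 and highest on day 22 and that of MIR450A1 is lowest on day 6, with spots that overlap those of other days.

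All 4 members were highest on day 2 among days 0 to 10, which held for 35.3% of the 207 features, while 61.4% were highest on day 4. All 4 were lowest on day 8, as were 76.3% of the features. The rise from day 8 to day 10, seen in all 4, was seen in 77.8% of the features. The low point on day 8 and the step after it were thus common to most features on this scale. With the median spot as zero all 4 were again highest on day 2 among days 0 to 10 (26.6% of the features). MIR345 and MIR449A were lowest on day 8 (14% of the features), MIR328 on day 4 and MIR450A1 on day 6. These are orders of means. On this scale the MIR328 spots of day 2 overlapped those of days 0 and 10, and its day 4 spots overlapped those of days 6 and 8. The MIR450A1 spots of day 6 overlapped those of day 8. Both zeros leave the brightness of the array in the units. By rank within the array MIR328 was not highest on day 2: it held place 62 then and place 34 on day 10. Its log2 level after normalization, given below, was likewise highest on day 10, at 8.24 against 7.69 on day 2. Counted from the dimmest spot, day 22 lay above day 10 in all 4 and in 61.4% of the features, but the choice of members used that array.

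Set against day 0, the members lay on both sides of the median feature on days 2 and 6. They lay at or below it on day 4 and above it on days 8 and 10. On day 2 they stood at 205% to 331% of their day 0 intensity, against a median of 215% over the 207 features. On day 4 MIR449A equalled the median of 261%, and MIR345, MIR328 and MIR450A1 lay below it at 165%, 179% and 197%. With the median spot as zero MIR328 stood at 23.4% of day 0 on day 4 and at 131% on day 10. On day 6 MIR449A was at 103%, MIR328 at 86.2%, MIR345 at 72.9% and MIR450A1 at 71.0%, against a median of 101%. On day 8 all 4 members lay above the median of 38.7%, at 40.4% to 57.6%, and on day 10 all 4 lay above the median of 52.6%, at 60.5% to 83.6%. On these 5 arrays the order of the 207 features by percent of day 0 put the members between place 34 and place 172.

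On day 22 MIR328 stood at 127% of day 0, MIR449A at 110%, MIR450A1 at 97.8% and MIR345 at 86.2%, while the median feature stood at 59.7%. These percents depend on the zero: with the median spot as zero they were 237% for MIR328, 170% for MIR449A, 126% for MIR450A1 and 100.3% for MIR345. MIR328 held place 2 of 207 in this order, MIR449A place 9, MIR450A1 place 15 and MIR345 place 34. In all, 13 of 207 features reached or passed their day 0 intensity on day 22. Since brightness on day 22 chose the members, these places carry no test. In single bulk arrays, less of a microRNA per cell and fewer cells that hold it cannot be told apart.

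**Figure D2:**
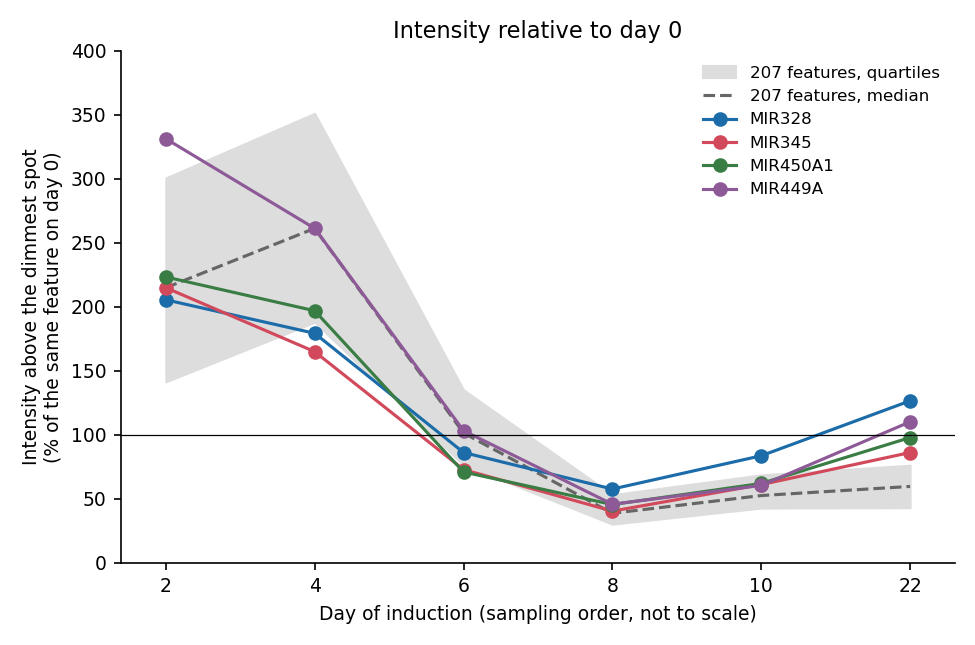
Intensity above the dimmest spot as a percent of the same feature on day 0 (y axis) by day of induction (x axis, equal steps) for the 4 microRNAs, with the median (dashed) and quartiles (grey band) of 207 features. The 4 lines run within or near the band from day 2 to day 10, and on day 22 all 4 lie above the band, at 86.2% to 127%.

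Ranks within an array do not change when all its spots are shifted or scaled alike, but they do depend on the other features. The brightest spot stood 2098 units above the dimmest on day 10 and 554 on day 22. The part of this loss in the day 22 ranks was not tested. MIR328 ranked 49, 62, 102, 78, 45 and 34 of 207 on days 0, 2, 4, 6, 8 and 10, then 9 on day 22. MIR345 ranked 20, 18, 37, 35, 35 and 26, then 4. MIR450A1 ranked 26, 21, 42, 55, 38 and 30, then 7, and MIR449A 42, 19, 41, 45, 47 and 39, then 8. None of the 4 was among the 10 brightest features of any array from day 0 to day 10. MIR328 moved furthest, from place 102 on day 4 to place 34 on day 10, before the array that chose it. Its day 4 place is loose: the places of its single spots had an SD of 18.5, and by the median of 3 spots it held place 94.

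**Figure D3:**
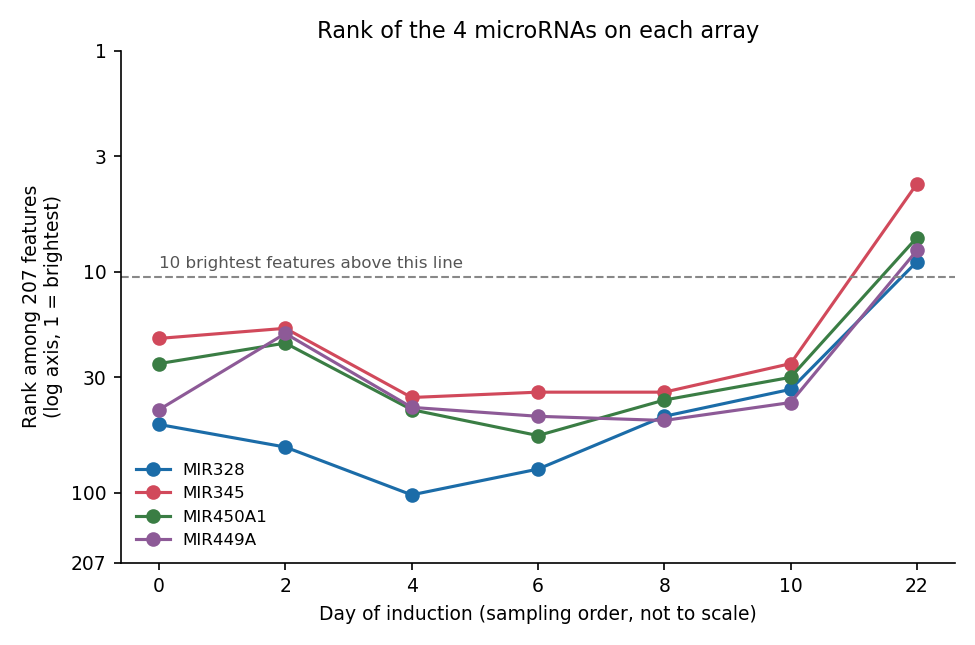
Rank among 207 features (y axis, log scale, 1 is the brightest) of the 4 microRNAs by day of induction (x axis, equal steps); the dashed line separates the 10 brightest features. The microRNAs stay between place 18 and place 102 up to day 10 and lie at places 4 to 9 on day 22.

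Intensity above the median spot removes a level added to all spots of an array but not the scale of the array, and the time course changed with it. Differences between days on this scale still include the brightness of the array. MIR328 then stood at 71.3, 116, 16.7, 27.0, 59.7 and 93.3 units over days 0 to 10 and at 169 on day 22. MIR345 stood at 237, 489, 264, 123, 95.0 and 153 units, then 238. MIR450A1 stood at 167, 362, 237, 67.0, 81.0 and 113 units, then 210, and MIR449A at 101, 446, 245, 89.3, 51.7 and 69.0, then 172. On this scale MIR328 was near the median spot on days 4 and 6, while MIR345, MIR450A1 and MIR449A kept their high on day 2.

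The signals can be set against markers of tissues that these cultures should not hold. MIR429 (epithelial), MIR375 (pancreatic islet) and MIR367, MIR371A, MIR372 and MIR373 (embryonic) were measured. Their highest mean on an array was 147, 314, 257, 153, 46.3 and 56.7 units above the dimmest spot over days 0 to 10. The means of all 4 members lay above these values on all 6 arrays, as did 21.3% of the 207 features. For MIR328 the spots did not separate throughout: on days 2, 4 and 6 its lowest spot, at 333, 270 and 150 units, lay below the highest marker spot, at 372, 280 and 177. The lowest spots of MIR345, MIR450A1 and MIR449A lay above the highest marker spot on each of the 6 arrays. Probes differ in affinity, so these positions are no measure of abundance, and day 22 is left out because it chose the members. MIR449A is itself a marker of ciliated epithelium, and the other genes of that list, MIR34B and MIR34C, were not among the named features. It was not counted among the markers above. Its mean lay above that of MIR328 on days 0, 2, 4 and 6 and above that of MIR450A1 on days 2, 4 and 6. With MIR449A as a further marker, MIR345 alone would thus lie above all markers on all 6 arrays.

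Of the 9 erythroid markers, 3 were among the named features, MIR15B, MIR22 and MIR96. MIR451A and MIR144, the best known red cell microRNAs, were not. The summed intensity of the 3 was 920, 1158, 3376, 1541, 1196, 786 and 203 units on days 0, 2, 4, 6, 8, 10 and 22. MIR15B was the brightest of them, with a mean log2 level over days 0 to 10 of 10.03, against 7.24 for MIR22 and 7.29 for MIR96. Of the 4 myeloid markers MIR21 and MIR342 were named, and their sum was 3497, 2336, 4785, 3870, 3148, 2044 and 173 units on the same days. MIR342 gave 157 of these units on day 0 and 48.7 on day 22. Both sums were lowest on day 22, the array that chose the members. Whether this loss of bright signal had a part in their places there was not tested. On days 0, 8, 10 and 22 the mean of the 4 members was 256, 118, 167 and 260 units. The embryonic sum was 341, 107, 149 and 237 on these days, and MIR429 gave 99.0, 46.3, 56.7 and 85.7. MIR375 gave 74.0, 17.0, 24.7 and 42.3, and the megakaryocyte markers MIR10A and MIR10B summed to 109, 43.0, 66.3 and 68.7. A rise from day 8 to day 22 was thus not particular to the members.

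To ask whether the members changed before the array that chose them, levels of days 0 to 10 were corrected for background, put on a log2 scale and quantile normalized over 6 arrays. MIR328 then stood at 7.88, 7.69, 7.25, 7.47, 7.98 and 8.24 on days 0, 2, 4, 6, 8 and 10. MIR345 stood at 8.76, 8.97, 8.07, 8.19, 8.20 and 8.50, MIR450A1 at 8.41, 8.66, 7.97, 7.79, 8.12 and 8.32, and MIR449A at 8.04, 8.91, 7.99, 7.96, 7.91 and 8.08. MIR328 dipped on day 4 and ended above its day 0 level. MIR345 and MIR450A1 had a high on day 2, a low on days 4 and 6 respectively and a partial return. MIR449A had 1 high array, day 2, and lay between 7.91 and 8.08 on the other 5.

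In the limma trend test over these 6 arrays, MIR328 had a fitted log2 change from day 0 to day 10 of 0.41 ± 0.40 (SE, adjusted p = 0.785, Benjamini-Hochberg over 207 features). The fitted change was -0.50 ± 0.39 for MIR345 (adjusted p = 0.726), -0.32 ± 0.38 for MIR450A1 (adjusted p = 0.810) and -0.41 ± 0.41 for MIR449A (adjusted p = 0.785), all from limma. Of the 4, 0 passed, and 0 of the 207 features passed in either direction (0% called). At an unadjusted p under 0.05 the limma test had 16 features with positive (7.73%) and 4 with negative (1.93%) fitted changes, with 0 members among them. Without the day 0 array 1 feature rose and 2 fell in limma, again with 0 members among them. Without normalization between arrays the fitted change of MIR328 was -0.70, while MIR345, MIR450A1 and MIR449A kept their sign. The sign was negative in 3 members and in 54.1% of all features, and positive in MIR328 and in 45.9%. The median fitted change was -0.36 over the members and -0.05 over all features.

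In limma's fit the second-order term, positive for a trough and negative for a peak within days 0 to 10, was 0.66 ± 0.29 for MIR328 (SE, unadjusted p = 0.0394, adjusted p = 0.531). It was 0.45 ± 0.31 for MIR345 (adjusted p = 0.674), 0.42 ± 0.31 for MIR450A1 (adjusted p = 0.695) and -0.01 ± 0.35 for MIR449A (adjusted p = 0.99997), all from limma with Benjamini-Hochberg adjustment. Again 0 members and 0 of 207 features passed (0% called). At an unadjusted p under 0.05, 10 features leaned towards a trough (4.83%), MIR328 among them, and 7 towards a peak (3.38%). Without the day 8 array 1 trough and 3 peaks passed in limma, and without the day 10 array 4 troughs and 5 peaks, with 0 members among them. The term was positive in 3 members and in 52.7% of the features, and negative in MIR449A and in 47.3%. The median term was 0.43 over the members and 0.02 over all features. Without normalization between arrays the terms of MIR328, MIR345 and MIR450A1 were negative, at -0.22, -0.35 and -0.43, so their sign rested on the scaling. The median term over all features was then -0.58, below these 3.

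**Figure D4:**
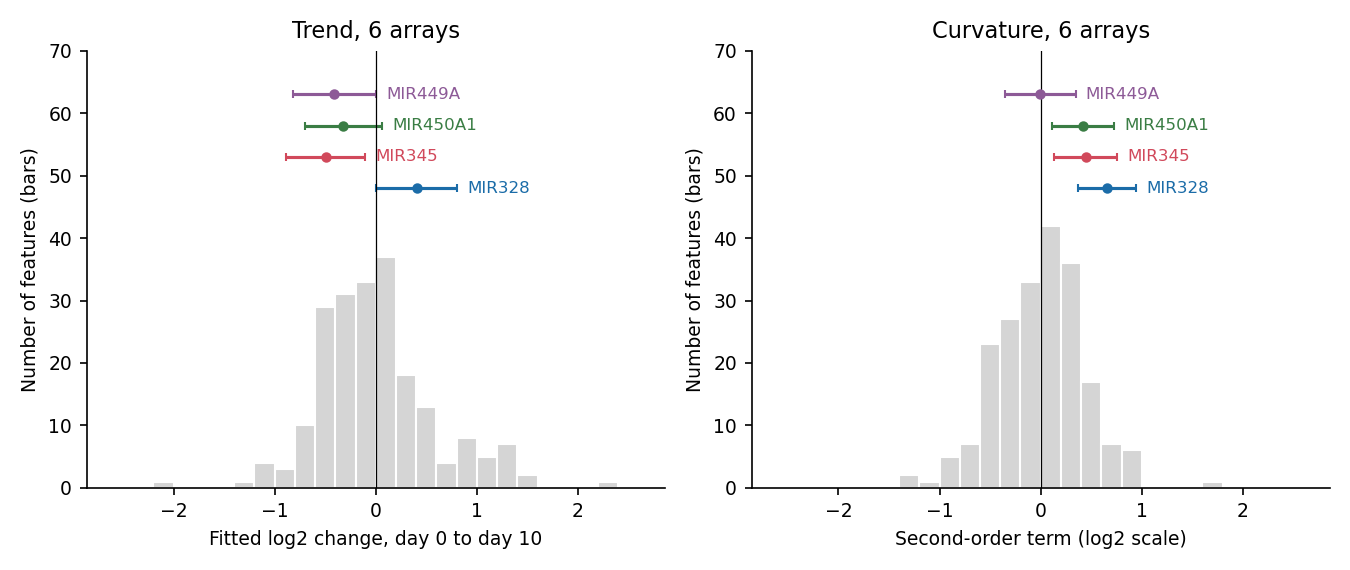
Fitted log2 change from day 0 to day 10 (left x axis) and second-order term (right x axis) from the limma fits over 6 arrays; bars count the 207 features (y axis), and points with SE bars mark the 4 microRNAs, at heights chosen for legibility. The points lie between -0.50 and 0.66, within the bulk of the bars.

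Among the 4 members, MIR345, MIR450A1 and MIR449A were more like each other than like MIR328. Over the 6 normalized levels of days 0 to 10, Pearson's r was 0.93 between MIR345 and MIR450A1, 0.78 between MIR345 and MIR449A and 0.75 between MIR450A1 and MIR449A. With MIR328 it was 0.38 for MIR345, 0.48 for MIR450A1 and -0.03 for MIR449A. Over the 21321 pairs of all features the median r was -0.01, with quartiles of -0.42 and 0.42. These are descriptions over 6 arrays that share 1 normalization. Other features were closer: MIR382 had r = 0.9307 with MIR345 and 0.9745 with MIR450A1, against 0.9292 between these members. For MIR449A, MIR379 at r = 0.83 held only place 17 of all features, ahead of both other members. The r values of MIR449A lean on day 2, its 1 high array. MIR449A and MIR450A1 occupy neighbouring rows of the table, and the part of array position in their likeness was not tested.

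Among named features, those most like MIR328 over the 6 arrays were MIR423 (r = 0.97), MIR346 (r = 0.96) and MIR339 (r = 0.94). MIR382, a microRNA of the imprinted cluster on chromosome 14, was the most like both MIR450A1 (r = 0.97) and MIR345 (r = 0.93). MIR33A, hosted by the sterol regulator gene SREBF2, took place 3 for MIR345 (r = 0.85) and place 1 for MIR449A (r = 0.93). MIRLET7I followed for MIR449A (r = 0.92), and MIR379, also of the chromosome 14 cluster, took place 3 for MIR449A (r = 0.83) and MIR450A1 (r = 0.87). MIR33A and MIRLET7I are themselves among the 10 brightest features of day 22, at places 2 and 3.

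By mean log2 level over days 0 to 10, MIR345 held place 24 of 207 at 8.45, MIR450A1 place 31 at 8.21, MIR449A place 34 at 8.15 and MIR328 place 51 at 7.75. The median over all features was 7.19. The named neighbours in this order were MIRLET7I at 8.64 above and MIRLET7G at 8.32 below MIR345. MIRLET7G also stood next above MIR450A1, with MIR15A at 8.21 next below. MIRLET7E at 8.16 and MIRLET7B at 7.99 enclosed MIR449A, and MIRLET7C at 7.83 and MIR448 at 7.62 enclosed MIR328.

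Genes related by family or position could be followed for MIR450A1 and MIR345. Of the 6 genes of the MIR424 to MIR450 cluster, MIR424 and MIR450A1 were among the named features, and 0 rose or fell in the limma trend test, as for all 207 features. MIR424, known from monocyte maturation, had a mean log2 level of 6.65 and, in limma, a change of 0.19 ± 0.40 (SE, adjusted p = 0.908), against 8.21 and -0.32 for its neighbour MIR450A1. MIR424 gave 49.0 units on day 0 and 58.7 on day 22, where MIR450A1 gave 279 and 273. Of 37 listed microRNAs of chromosome 14, 11 were named, MIR345 among them. Of these, 0 rose and 0 fell, 3 had positive and 8 negative fitted changes, and the median was -0.11, against 45.9% positive, 54.1% negative and a median of -0.05 over all features, of which 0 passed. The smallest p belonged to MIR342 at -1.03, MIR381 at -0.75, MIR345 at -0.50 and MIR382 at -0.43, with adjusted p of 0.341, 0.496, 0.726 and 0.758 in limma. Of the 6 genes of the MIR34 and MIR449 family MIR449A alone was named.

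The features with the smallest p in the trend test were others. MIR21, abundant in many tumours, had a fitted change of 1.25 and MIR29A, a repressor of collagen genes, one of 2.38, and limma's adjusted p was 0.287 for both. MIR19A of the MIR17 to MIR92 cluster had one of -2.18 (adjusted p = 0.165, limma). In the second-order term MIR29A came closest to the threshold, at 1.65 ± 0.32 (SE, adjusted p = 0.0536, limma), followed among named troughs by MIR423 at 0.91, the named feature most like MIR328.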

How the data were processed

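The table held 621 rows and 8 columns of 1-colour Cy3 arrays, per the labels. The authors deposited linear intensity with the mean of each array subtracted, as the values show. The scanner, image software, background correction and genome build were not given in the sources used here. Every 3 consecutive rows were taken as the spots of 1 feature, giving 207, of which 67 carried a gene symbol. All 67 matched RefSeq (GRCh38.p14) by gene ID, and 65 had a mature strand there. The day 15 column equalled the mean of days 10 and 22 in all 621 rows (tolerance 0.0051 units) and was left out.

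Background was corrected by normexp with an offset of 50 (limma 3.58.1 in R 4.3.3) and values were put on the log2 scale, quantile normalized over days 0 to 10 and averaged over spots. Offsets shrink log2 differences of dim features. The slope over sampling order (5 steps, 4 residual degrees of freedom) and the second-order orthogonal polynomial (3 residual degrees of freedom) were tested with lmFit and eBayes, with Benjamini-Hochberg adjustment over 207 features and a threshold of 0.05. Such p-values measure only the scatter between 6 single arrays, whose number limits precision. The tests were run on simulated data with independent noise around normalized levels. That simulation had no array effects and skipped background correction and normalization, so it cannot tell how these steps affect the tests. Plots used matplotlib 3.10.9 (Python 3.11.15).

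The members, lists, tests and counts were chosen with earlier results of these data known. Other features are named by a rule: the 10 brightest of day 22, the 3 most like each member, neighbours in mean level, list members (the 4 with the smallest p where over 6 were measured) and the 3 with the smallest p per direction. Unnamed features are not printed. Alternatives changed scaling, background, offset, filter, time scale, spots and arrays.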

Additional observations from a re-analysis of the deposited data

How the results depend on the processing

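For the 4 microRNAs, 0 of the fits passed the threshold in any of the 18 alternatives for the trend or the 17 for the second-order term. Leaving aside the fits with day 22, adjusted p ran from 0.218 to 0.99998 (limma, Benjamini-Hochberg). Signs changed as follows, and the cause was not tested. Without normalization between arrays the trend of MIR328 was -0.70 and the second-order terms of MIR328, MIR345 and MIR450A1 were -0.22, -0.35 and -0.43. The median fitted change of all features was then -0.92, against 0.14 with median centring and 0.23 with 75th percentile scaling, so changes are relative to that shift. The median second-order term of all features without normalization was -0.58. Without normalization 0 features had a positive and 18 a negative trend at an unadjusted p under 0.05. With the dimmest spot set to 50 and no normalization the trend of MIR328 was -0.88 and the same 3 terms were -0.37, -0.43 and -0.52. With a term for days 8 and 10 the trend of MIR328 was -0.64. After 75th percentile scaling the second-order term of MIR449A was 0.10. The fits with day 22 are description only, since that array chose the members and so set the direction. Their trends run from day 0 to day 22 and not to day 10. They were 1.17, 1.12 and 0.88 for MIR345, MIR450A1 and MIR449A, and the second-order term of MIR449A was 1.13. Leaving out 1 array at a time, as slope times 5 steps, gave trends of -0.0197 (without day 10) to 0.91 for MIR328. It gave second-order terms of -0.24 to 0.57 for MIR449A, at 0.57 without day 0 and 0.10 without day 2.

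Over all features, the count of falling trends became 1, MIR19A, with the dimmest spot set to 50 and no normalization and with day 22. Leaving out 1 array gave 0 to 2 falling and 0 to 1 rising, above 0 without day 0 alone. The count of troughs became 1, MIR29A, after median centring, 75th percentile scaling, the filter at the median level, an offset of 16 and on a log2 scale of days, which also gave 2 peaks. With each spot tested by itself there were 3 troughs, all spots of MIR29A, and 2 peaks. Leaving out 1 array gave 0 to 4 troughs and 0 to 5 peaks, above 0 without day 8 or day 10 alone. Days in place of sampling order gave the same fit, since days 0 to 10 are evenly spaced. All 28 ranks of the members moved by no more than the spread of their spots when the median of 3 spots replaced the mean. All 28 intensities are lower by construction when counted from the median spot of the array, and the order of day means then differs. MIR328 was lowest on day 4 (16.7 ± 51.4 units, SD over 3 spots, against 27.0 ± 13 on day 6). It was highest on day 22 (169 ± 6.08, against 116 ± 59.9 on day 2). MIR450A1 was lowest on day 6 (67.0 ± 10.6, against 81.0 ± 7.55 on day 8). In each of these comparisons the spots of the days overlapped. No paired analysis was possible because each time point has 1 array and the labels give no replicate numbers.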

Other observations

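Beside the 4 microRNAs, MIRLET7I, MIR33A, MIR26B and 3 unnamed features made up the 10 brightest of day 22. MIR26B, hosted by the phosphatase gene CTDSP1, differed from the 4 in its early values: it measured 404 units on day 0 and 250 on day 2, where all 4 were higher on day 2 than on day 0. It held place 19 on day 0 and place 107 on day 2. On days 0, 2, 8 and 22 MIR33A measured 686, 1406, 262 and 468 units, with its highest and lowest arrays on the same days as the 4. MIRLET7I stood at 310, 838, 148 and 333 units on the same days.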
